A study of Fundulus heteroclitus with 20 samples.

Results

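Syndecans and glypicans are the cell-surface core proteins that carry heparan sulfate, and 10 of the 13679 genes in the deposited count table were taken as this family because their descriptions contain either word. They are 2 syndecans, syndecan-4-like (LOC105918751) and syndecan-2-like (LOC105930768), and 8 glypicans. The glypicans are gpc5 (glypican 5), LOC105920406 and LOC105936964 (both glypican-5-like), LOC105936982 (glypican-1-like), and LOC105916355, LOC105921706, LOC105924072 and LOC105933611 (all glypican-6-like). One further entry, sdcbp, is a syndecan binding protein and was not counted as a member. The family was chosen by the lesioned against intact fold change and adjusted p-value of LOC105918751 in these libraries, so its difference is given below as a description without a test. The other members were taken by description alone. Family genes that the deposited table does not list under either word are not covered, so the tissue may express others.

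Syndecans span the membrane and hold their heparan sulfate chains close to integrins, growth factors and the cytoskeleton. Glypicans are tethered to the outer membrane by a lipid anchor and modulate signals such as Wnt, Hedgehog and fibroblast growth factors. In mammals, syndecan-4 is a component of focal adhesions that binds protein kinase C alpha, and it is known to rise in wounded skin. In mouse, astrocyte-derived glypicans take part in the formation of excitatory synapses.

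The libraries were made from total RNA of the midbrain/diencephalon of 10 adult mummichogs (Fundulus heteroclitus), a killifish. Each fish received a needle lesion through the optic tectum and tegmentum into the hypothalamus of 1 hemisphere under anesthesia and was sacrificed 1 h later. The lesioned hemisphere and the contralateral, intact hemisphere gave 1 library each, 20 in all, so the control tissue comes from the same injured animal and no uninjured fish is among the libraries. Per the labels all intact hemispheres are left and all lesioned ones right, which cannot be told apart from the lesion, whereas the methods describe an equal split of sides.

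The libraries held 9213580 to 11070103 counts on the listed genes. One library stood apart. The intact hemisphere of fish 3 scored 41.1 on principal component 1 (13.5% of the variance), where the other intact hemispheres scored -22.4 to 10.4. For several results below, values without this library or without fish 3 are given beside the main ones. All 16 marker genes of midbrain and hypothalamus on a list made for this purpose passed the filter on low counts. Levels are given in CPM (counts-per-million), the counts of a gene relative to the TMM-scaled total of its library. The summed level of these markers was 295 to 378 CPM in intact and 319 to 407 CPM in lesioned hemispheres. The largest part came from otx2 (mean 108 CPM in intact hemispheres), so the sum says little about the other markers. Some of them differed widely between the hemispheres of a fish. The log2 ratio of lesioned over intact ran from -2.64 to 3.22 for nkx2-1. It ran from -7.14 to 5.53 for LOC105921087 (agouti-related protein-like). In tissue samples of this kind, fewer cells of a type and less RNA per cell cannot be told apart.

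A reference annotation of a later mummichog assembly (MU-UCD_Fhet) lists 8 of the 10 members by gene identifier. There LOC105918751 carries the symbol sdc4, LOC105920406 gpc5a, LOC105916355 gpc6a, LOC105933611 gpc6b and LOC105921706 gpc2, although the deposited table describes the last as glypican-6-like. LOC105930768 is listed there as a non-coding RNA, and gpc5 and LOC105924072 are named only in the deposited table. Because the counts were made on another assembly, no coordinates are given. Transcript lengths were not used here, so levels are compared between hemispheres and fish and not between genes.

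For syndecan-4-like the study designed a primer pair within the open reading frame. The pair is matched to LOC105918751 by this name and was not aligned to a sequence here. These oligonucleotides were not used for the counts described here.
syndecan-4-like forward: gtggacgaagtggacctcgtc
syndecan-4-like reverse: gacctccgtgctgttgaagacg

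Syndecan-4-like (LOC105918751) was higher in the lesioned hemisphere of every fish. In intact hemispheres it had 53.3 to 108 CPM (median 67.1), and in lesioned hemispheres 105 to 167 CPM (median 131). The groups overlapped by a single pair of values, since the intact hemisphere of fish 5 (108 CPM) lay above the lesioned hemisphere of fish 10 (105 CPM). The mean was 69.9 ± 16.7 CPM in intact and 134 ± 19.6 CPM in lesioned hemispheres (SD, n = 10 fish). The fitted log2 fold change was 0.96 (standard error 0.08), which is 1.94-fold with a 95% interval of 1.73 to 2.18. These values come from the contrast for which the gene was chosen, and nothing is read from them beyond the size.

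The size differed between fish. The log2 ratio of lesioned over intact was 1.37 in fish 1, 1.26 in fish 7, 1.10 in fish 3 and 1.01 in fish 4. It was 0.97 in fish 10, 0.95 in fish 2, 0.94 in fish 8, 0.89 in fish 9, 0.75 in fish 6 and 0.33 in fish 5. The small ratio of fish 5 went with the highest intact level of the 10 fish, while its lesioned level (135 CPM) was close to the median of the lesioned group. With 544 to 989 counts in intact and 997 to 1692 counts in lesioned libraries, counting error alone gives a coefficient of variation of 3.75% and 2.72%. The observed values were 23.9% and 14.6%, so the spread between fish was well above counting error.

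**Figure D1:**
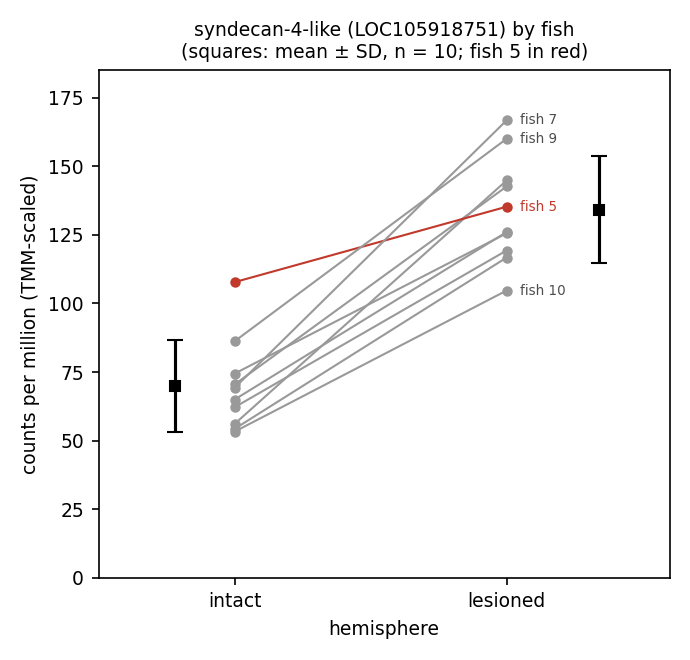
Level of syndecan-4-like (LOC105918751) in CPM in the intact and lesioned hemisphere of each fish, joined by a line, with the mean and SD of each group as squares (n = 10). All 10 lines rise, and fish 5, in red, starts at 108 CPM and has the flattest line.

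The other syndecan listed in the deposited table, syndecan-2-like (LOC105930768), was close to absent. It had 17 counts in all 10 intact libraries together and 7 in all 10 lesioned ones. Of the intact libraries 5 had 0 counts and the highest had 7, and of the lesioned libraries 5 had 0 counts and the highest had 3. It did not pass the filter on low counts, and a difference between its hemispheres was not detectable at this depth.

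The remaining 9 members passed the filter, 1 syndecan and 8 glypicans. Among them 1 gene was called in edgeR's quasi-likelihood test, where a call is an adjusted p-value no higher than 0.1, and this is LOC105918751, for which the family was chosen. Over all 10513 genes tested, 1.38% were called with edgeR and 1.67% with DESeq2. None of the 8 glypicans was called with either tool, and none had an unadjusted p-value under 0.05 with either. Over all genes 11.7% had an unadjusted p-value under 0.05 with edgeR and 7.12% with DESeq2. The glypican log2 fold changes ran from -0.19 to 0.13, 5 of them negative and 3 positive, and their adjusted p-values from edgeR ran from 0.532 to 0.996. Their median was -0.01, beside a median of -0.0083 over all genes, of which the central 95% lay between -0.24 and 0.28. Summed over the 8 glypicans, the level was 326 ± 17.1 CPM in intact and 323 ± 13.4 CPM in lesioned hemispheres (SD, n = 10).

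**Figure D2:**
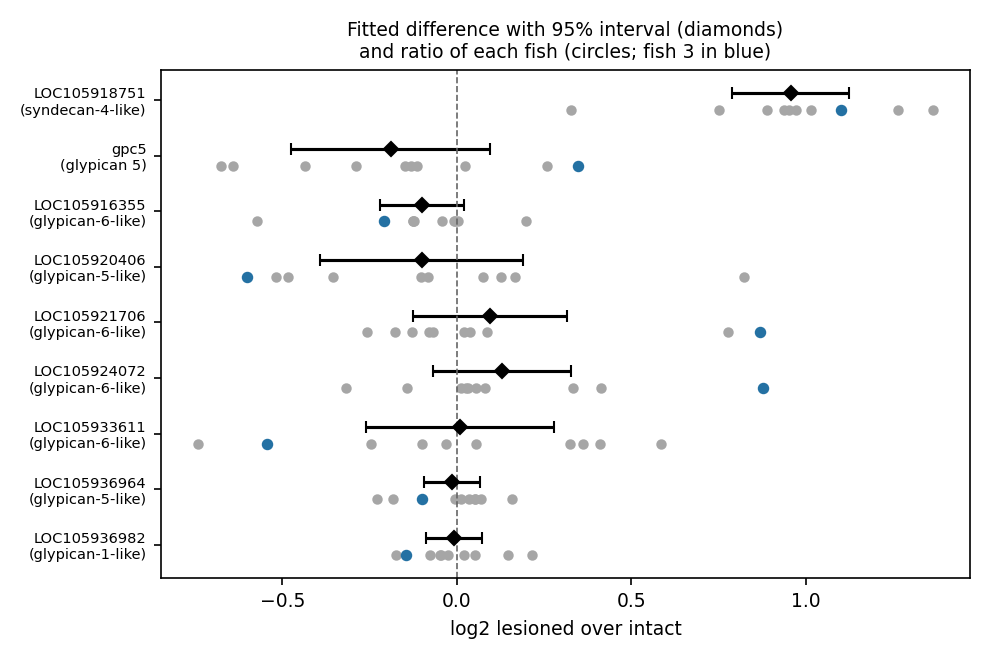
Log2 ratio of lesioned over intact for the 9 members that passed the filter, with the fitted difference and its 95% interval as diamonds with bars, the 10 fish as circles and fish 3 in blue. All circles of syndecan-4-like lie above 0, while the intervals of all 8 glypicans include 0.

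The glypican intervals differ in width, and the narrowest belong to 2 genes with many counts. LOC105936964 (glypican-5-like) had 125 to 188 CPM in intact (median 134) and 113 to 176 CPM in lesioned hemispheres (median 136). Its fitted log2 fold change was -0.01 (95% interval -0.09 to 0.07; adjusted p = 0.930 from edgeR). The groups overlapped almost entirely, and fish 3 was the highest fish in both. LOC105936982 (glypican-1-like) had 65.0 to 123 CPM in intact (median 81.2) and 58.7 to 109 CPM in lesioned hemispheres (median 81.3). Its log2 fold change was -0.01 (95% interval -0.09 to 0.07; adjusted p = 0.972 from edgeR). For both genes a change beyond 0.09 on the log2 scale lies outside the interval.

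Of the 9 members, LOC105916355 (glypican-6-like, gpc6a in the later annotation) varied least among intact hemispheres. It had 38.6 to 47.3 CPM (median 44.5), a coefficient of variation of 6.20%, where counting error alone gives 4.71%. In lesioned hemispheres it had 31.7 to 47.2 CPM (median 41.3) and was lower than on the intact side in 8 of 10 fish. The log2 fold change was -0.10 (95% interval -0.22 to 0.02; adjusted p = 0.532 from edgeR), and the ratios did not differ from 0 beyond the spread between fish (exact permutation test by sign flips, two-sided, p = 0.129). This is the smallest of the 8 glypican p-values from that test, and the largest was 0.949. Fish 10 had the lowest ratio, -0.57, and without it the log2 fold change was -0.05.

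LOC105921706 and LOC105924072, both described as glypican-6-like, had the highest correlation with each other among the members. LOC105921706 had 13.3 to 37.6 CPM in intact (median 30.1) and 22.1 to 38.2 CPM in lesioned hemispheres (median 30.6). LOC105924072 had 6.29 to 19.8 CPM in intact (median 15) and 11.3 to 20.2 CPM in lesioned hemispheres (median 16.4). The lowest intact value of both genes was that of fish 3. Relative to the mean of each group, their log2 levels correlated across the 20 libraries at r = 0.89 (rho = 0.82), the highest of the 36 pairs of members and well above the next pair at 0.39. Without the intact library of fish 3 it was 0.78. For this value, and for the other pairs given below without that library, the group means still included it. The libraries share fish in pairs, so this is a description. The counts of LOC105921706 were 1.46 to 2.41 times those of LOC105924072 in every library, with a median of 1.94. The table gives them as separate genes with the same description, and whether reads were divided between them was not tested.

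**Figure D3:**
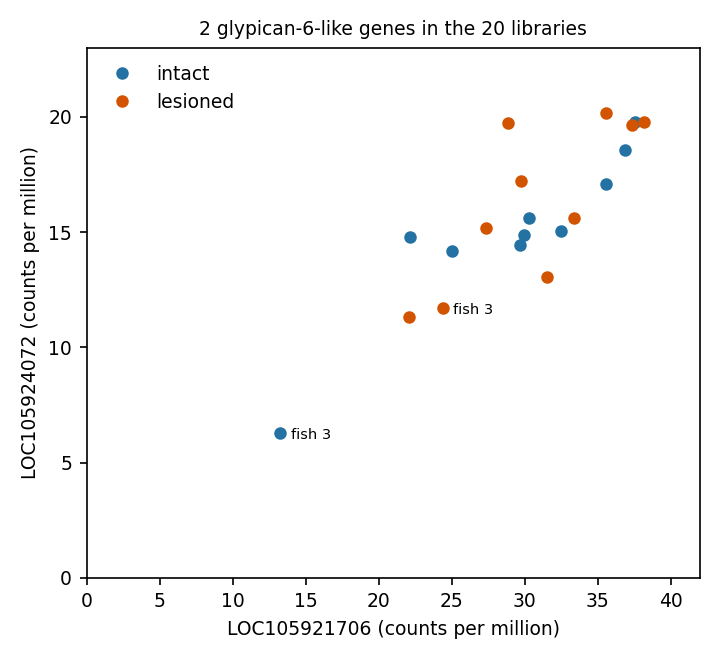
Level of LOC105924072 against LOC105921706, both in CPM, in the 10 intact (blue) and 10 lesioned (orange) libraries. The points follow 1 band, and the intact hemisphere of fish 3 lies at its lower end (13.3 and 6.29 CPM).

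Neither gene was called. The log2 fold change was 0.10 for LOC105921706 (95% interval -0.13 to 0.32; adjusted p = 0.783 from edgeR). It was 0.13 for LOC105924072 (95% interval -0.07 to 0.33; adjusted p = 0.644). Fish 3 had the highest ratio for both, 0.87 and 0.88, and without it the log2 fold changes were 0.02 and 0.06. For LOC105921706 the ratio of fish 9 was also high, at 0.78, and without fish 9 the log2 fold change was 0.02.

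The remaining glypicans had few counts and wide intervals. LOC105933611 (gpc6b in the later annotation) had 5.87 to 8.98 CPM in intact (median 7.90) and 5.25 to 8.94 CPM in lesioned hemispheres (median 8.00). Its log2 fold change was 0.01 (95% interval -0.26 to 0.28; adjusted p = 0.996 from edgeR), with 5 fish higher and 5 lower, and its sign changes with the scaling. LOC105920406 (gpc5a) had 2.86 to 5.39 CPM in intact (median 4.5) and 3.09 to 6.09 CPM in lesioned hemispheres (median 4.17). Its log2 fold change was -0.10 (95% interval -0.39 to 0.19; adjusted p = 0.835). It was -0.04 without fish 3, -0.05 without fish 6, -0.05 without fish 8 and -0.21 without fish 10. The groups of both genes overlapped. The gene listed as gpc5 had 1.28 to 2.70 CPM in intact (median 2.40) and 1.28 to 3.10 CPM in lesioned hemispheres (median 1.79). It was lower in 7 of 10 fish, with a log2 fold change of -0.19 (95% interval -0.48 to 0.10; adjusted p = 0.654). At 13 to 32 counts per library, its intact coefficient of variation of 20.4% was close to the 21% that counting error gives.

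Whether a member has a level that belongs to the fish rather than to the hemisphere was examined by correlating intact with lesioned log2 CPM across the 10 fish, for 9 members with permutation p-values adjusted over them. Such a correlation was common. Over all 10513 genes tested the median r was 0.59, with quartiles of 0.30 and 0.79, and the members' values are read against this. Glypican-1-like (LOC105936982) had r = 0.88 (permutation test, p = 0.00102, adjusted p = 0.00918) and rho = 0.73 (p = 0.0200, adjusted p = 0.0899), and 12.4% of all genes had at least this r. Fish 7 was the highest and fish 3 the lowest on both sides, and without these 2 fish r was 0.76. LOC105924072 had r = 0.67 (permutation test, p = 0.00724, adjusted p = 0.0326) and rho = 0.77 (p = 0.0119, adjusted p = 0.0899). Its r was 0.63 without fish 1 and 3, and 41.1% of all genes had at least r = 0.67.

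For LOC105936964 r was 0.75 (permutation test, p = 0.0232, adjusted p = 0.0697) and rho 0.41 (p = 0.249, adjusted p = 0.314). Without fish 3 and 8 its r was -0.23, so the relation rests on those fish. Syndecan-4-like had r = 0.48 (permutation test, p = 0.167, adjusted p = 0.215) and rho = 0.55 (p = 0.105, adjusted p = 0.280), and 61.5% of all genes had at least this r. The 5 members left had r from -0.59 (LOC105933611) to 0.50 (gpc5), with adjusted p-values of 0.170 or more in the permutation test. Of all genes, 99.5% had at least the r of LOC105933611, 95.1% that of LOC105920406 and 94.2% that of LOC105916355. For LOC105921706 and gpc5 this share was 60.1% and 59.2%. LOC105921706 had r = 0.49, and 0.87 without fish 3 and 9.

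The genes whose pattern was most like that of syndecan-4-like were looked for among the 10504 genes tested outside the family, by Pearson's r of log2 CPM over the 20 libraries. The 5 highest were fosl1 (r = 0.98), nr4a1 (0.96), LOC105929572 (0.95), LOC105929553 (0.95) and LOC105920488 (0.95). The gene fosl1 encodes an AP-1 subunit, nr4a1 an orphan nuclear receptor, LOC105929572 a protein like jun dimerization protein 2, LOC105929553 a protein like c-Fos and LOC105920488 a protein like tristetraprolin, which promotes the decay of mRNAs. All of them were higher in lesioned hemispheres, with log2 fold changes of 1.82, 2.51, 1.18, 1.44 and 1.09. The difference between the groups, for which syndecan-4-like was chosen, therefore contributes to these correlations.

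The likeness was also seen among the 10 intact hemispheres alone. There r was 0.98 for fosl1 (rho = 0.96), 0.94 for LOC105929572, 0.90 for LOC105920488, 0.89 for LOC105929553 and 0.87 for nr4a1. These genes were picked for their likeness over libraries that include the intact ones, so the values are a description with no test. Of all 10504 genes, 14 reached an r of 0.9 or more with syndecan-4-like among intact hemispheres, the median gene had 0.01, and fosl1 ranked 1. The intact hemisphere of fish 5 was the highest of the 10 for each of the 5 genes as it was for syndecan-4-like. Without fish 5 and 9, r was 0.97 for fosl1, 0.88 for nr4a1, 0.86 for LOC105929572, 0.77 for LOC105920488 and 0.74 for LOC105929553. Among the 10 lesioned hemispheres r was 0.87 for fosl1, 0.86 for nr4a1, 0.69 for LOC105929553, 0.62 for LOC105920488 and 0.60 for LOC105929572. In fosl1 the intact hemisphere of fish 5 had 26.8 CPM, above a median of 25.9 CPM in lesioned hemispheres, where the median intact hemisphere had 7.22 CPM. For the 8 glypicans r with syndecan-4-like among intact hemispheres ran from -0.48 to 0.31.

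**Figure D4:**
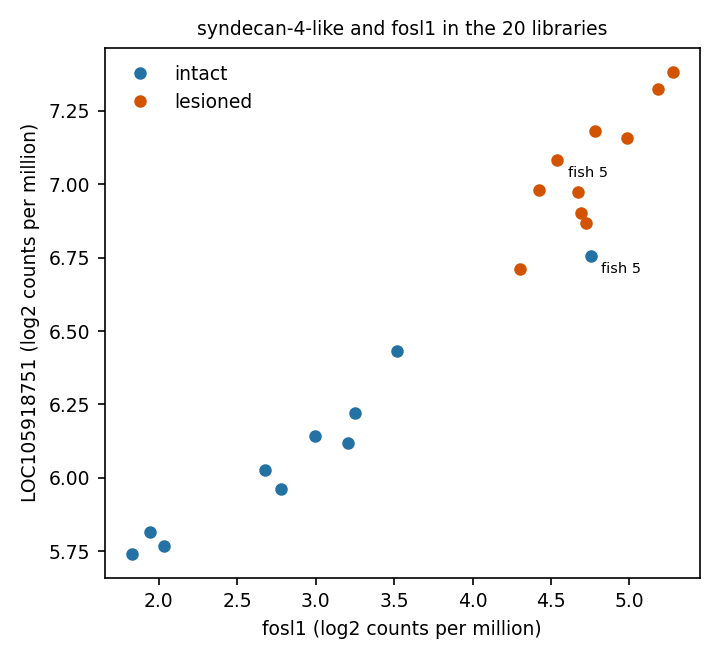
Log2 CPM of syndecan-4-like (LOC105918751) against fosl1 in the 20 libraries, intact in blue and lesioned in orange. The points lie along 1 line over both groups, and the intact hemisphere of fish 5 lies among the lesioned hemispheres.

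Genes that make, trim and bind heparan sulfate were examined on 6 lists, together with syndecan partners and chondroitin sulfate proteoglycans. The lists held 71 genes, of which 63 passed the filter. With edgeR 1 of these was called higher and none lower, where 1.28% of all genes were called higher and 0.0951% lower. The called gene is LOC105928246, proheparin-binding EGF-like growth factor, a membrane-anchored ligand that binds heparan sulfate and activates the EGF receptor. It had 16.2 to 44.9 CPM in intact (median 25.6) and 35.7 to 86.9 CPM in lesioned hemispheres (median 53.2), and was higher in all 10 fish. The fitted difference was 1.08 log2 with a standard error of 0.09 (edgeR adjusted p = 2.6e-05). Its call was known when the list was made. The other 9 tested heparin-binding ligands were not called, and the list's median log2 fold change was -0.02.

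No tested gene on the lists of heparan sulfate enzymes was called. Of 19 tested genes of heparan sulfate synthesis, from chain polymerisation (ext2) to N-, 2-O-, 3-O- and 6-O-sulfation, none was called and none had an unadjusted p-value under 0.05 in edgeR, and DESeq2 called none. Their log2 fold changes lay between -0.14 and 0.12, with a median of -0.02. The smallest p-value was that of hs3st1, a 3-O-sulfotransferase, with a log2 fold change of -0.08 (adjusted p = 0.462). The list for chain cleavage, desulfation and core protein release held 6 genes: heparanase, sulf1, a notum-like gene and genes like adam10 and adam17. The notum-like gene is described as a palmitoleoyl-protein carboxylesterase, and whether it acts on heparan sulfate proteoglycans was not examined. The 6 genes lay between -0.11 and 0.01, none with an unadjusted p-value under 0.05 in edgeR and none called by DESeq2. Among them hpse, heparanase, had the smallest p-value, with a log2 fold change of -0.10 (adjusted p = 0.607).

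Of 11 tested genes for intracellular partners of syndecans none was called by edgeR or DESeq2. In edgeR 2 had an unadjusted p-value under 0.05, prkca and tiam1, both with a higher level, where 11.7% of all genes had such a p-value. The gene prkca, protein kinase C alpha, had 42.6 ± 8.96 CPM in intact and 48.9 ± 8.11 CPM in lesioned hemispheres (SD, n = 10), with a log2 fold change of 0.21 (adjusted p = 0.321). The adaptor sdcbp (syntenin), which binds the syndecan tail, was lower in 8 of 10 fish and was not called. Its log2 fold change was -0.04 (standard error 0.03, edgeR adjusted p = 0.584). Other carriers of heparan sulfate, such as perlecan and agrin, had a median of -0.06 over 7 genes. None was called by edgeR or DESeq2, and 2 had an unadjusted p-value under 0.05 in edgeR, both with a lower level, beside the same 11.7% of all genes. The smallest belonged to cd44, a hyaluronan receptor (log2 fold change -0.13, lower in 8 of 10 fish, adjusted p = 0.246). Without fish 1, LOC105918938, a collagen XVIII-like gene of this list, had an adjusted p of 0.0475 in place of 0.509. Of 10 chondroitin sulfate proteoglycan genes none was called or had an unadjusted p-value under 0.05 in edgeR, and DESeq2 called none. The smallest p-value was that of acan (aggrecan), with a log2 fold change of -0.13 (adjusted p = 0.447).

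**Figure D5:**
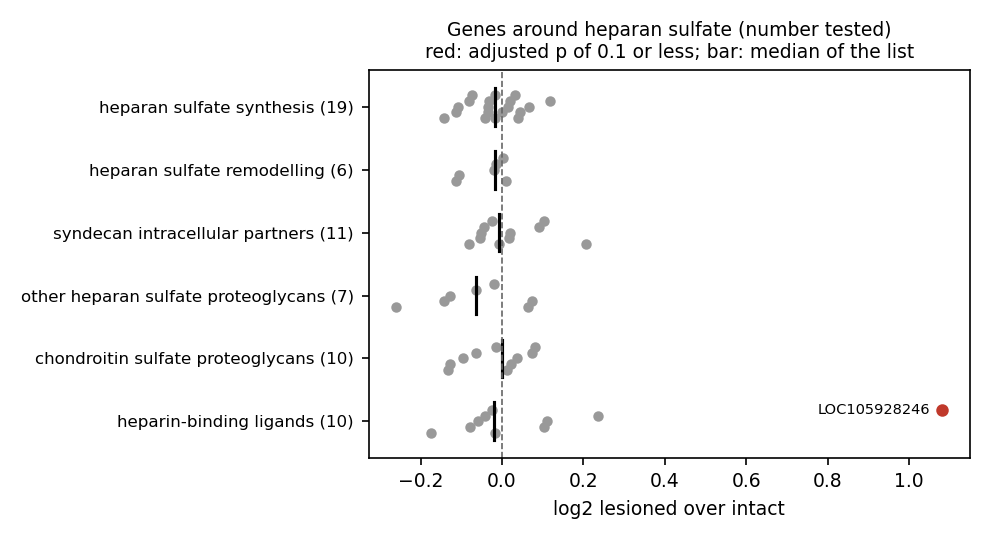
Log2 fold change of lesioned over intact for the genes of 6 lists around heparan sulfate, chondroitin sulfate proteoglycans included. The number tested is in brackets, calls by edgeR are in red and medians are bars. Only LOC105928246 is red, at 1.08, and the other genes lie between -0.26 and 0.24.

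Markers of the cell types that the tissue can hold were set beside the syndecan-4-like values. Of 67 tested markers on 9 lists, 2 were called higher and 1 lower by edgeR, where 1.28% of all genes were called higher and 0.0951% lower. Unadjusted p-values under 0.05 from edgeR, which 11.7% of all genes had, are given beside these calls. The summed level of the 13 listed endothelium and pericyte markers was 797 to 1107 CPM in intact and 848 to 1100 CPM in lesioned hemispheres. Of the 12 tested, 2 had such a p-value with a higher and 3 with a lower level. Among them LOC105915527, like the tight junction protein claudin-5, was called higher (log2 fold change 0.59, adjusted p = 0.00859, 10 of 10 fish), and this call was lost without the replicate block (adjusted p = 1.00). Without fish 2 a second gene of this list was called, LOC105925206, like the pericyte marker rgs5 (adjusted p = 0.0508 in place of 0.333). The 3 with a lower level were not called: the log2 fold change of cldn5 (claudin 5) was -0.12 (edgeR adjusted p = 0.356), that of egfl7 -0.10 (0.381) and that of LOC105932848, also like rgs5, -0.12 (0.339). The 13 microglia and macrophage markers summed to 371 to 647 CPM in intact and 375 to 576 CPM in lesioned hemispheres, lower in 8 of 10 fish. An unadjusted p-value under 0.05 was found for 6 of the 13, all with a lower level in lesioned hemispheres. Of these gpr34 was called lower (-0.51, adjusted p = 0.00265, 10 of 10 fish). With DESeq2 and without fish 3, lcp1 was called as well (adjusted p = 0.0718 and 0.0783), as were csf1r without fish 1 (0.0697) and c1qa without fish 10 (0.0679).

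Astroglia markers (8 genes) summed to 11392 to 15756 CPM in intact and 10506 to 15181 CPM in lesioned hemispheres, and meningeal fibroblast markers (9 genes) to 141 to 293 and 160 to 258 CPM. Neuron markers (5 genes) summed to 4611 to 6115 and 5006 to 5978 CPM, and oligodendrocyte markers (11 genes) to 10092 to 14721 and 9966 to 15642 CPM. Most of the neuron sum came from LOC105936999 (mean 5024 CPM in intact hemispheres). Most of the oligodendrocyte sum came from LOC105933411 (mean 9511 CPM), so these sums say little about the other genes of their lists. No gene of these 4 lists was called by edgeR or DESeq2. Planned markers such as gfap and vim (astroglia) or elavl3 (neuron) are not on the lists, so this covers the listed genes only. At an unadjusted p-value under 0.05 in edgeR there was 1 astroglia gene and 1 oligodendrocyte gene, each with a lower level in lesioned hemispheres. No neuron or meningeal fibroblast gene had such a p-value. Erythrocyte markers (4 genes) summed to 4.92 to 19.3 CPM in intact and 6.10 to 19.3 CPM in lesioned hemispheres, higher in 9 of 10 fish, and 1 of them, hemgn, was called without fish 6 only. Of the 2 tested, 1 had an unadjusted p-value under 0.05, with a higher level. Skeletal muscle markers (7 genes, with the actin gene LOC105925029 at 0) summed to 7.76 to 16.2 CPM (median 11.5) in intact hemispheres. In lesioned hemispheres the sum was 7.88 to 135 CPM, with a median of 15.3, so the highest value lay far above the middle of the group. The 1 gene tested had an unadjusted p-value under 0.05, with a higher level. Among the 16 midbrain and hypothalamus markers, 3 had an unadjusted p-value under 0.05 with a higher and 1 with a lower level. Of these otx2 was called higher (0.28, adjusted p = 0.0476), but not without fish 1 (0.126), fish 4 (0.128) or fish 10 (0.128) or without the replicate block (0.336). Without fish 3 LOC105926046 (GATA-binding factor 2-like) was called too (0.0204 in place of 0.288). The part of these markers in the syndecan-4-like difference was not tested.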

How the data were processed

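RNA-seq counts of 20 libraries, 1 intact and 1 lesioned hemisphere of each of 10 mummichogs, were used as deposited. The authors trimmed reads (CutAdapt), aligned them (STAR) to Fundulus_heteroclitus-3.0.2 and obtained gene counts by htseq, whose strand setting is not given in the sources used here. The labels name the SMART-Seq kit and the methods TruSeq. The table also holds the authors' DESeq2 comparison (mean, fold change, standard error, statistic and p-values), which was not used. Of 16264 entries, 2585 transfer RNA entries, with at most 0.00458% as many counts as the genes, were left out.

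The test was that of edgeR 4.0.16 (R 4.3.3): TMM scaling, filterByExpr (minimum count 10, total 15), quasi-likelihood fit with fish as a block, and Benjamini-Hochberg adjustment over 10513 genes. DESeq2 1.42.0 served as an alternative. Standard errors are the log2 fold change over the square root of F. CPM is TMM-scaled, and log2 CPM has a prior count of 2. Sign-flip tests covered all 1024 patterns, and correlations used 100000 permutations.

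Libraries with the same number are the hemispheres of 1 animal. Relative to group means they correlated at 0.385 to 0.731, against -0.207 to 0.201 between fish. The highest share of genes with equal counts in 2 libraries was 1.97%. On simulated counts edgeR called 92.0% of genes changed by 0.5 and 100% of those changed by 1 (log2) among 10486 genes, and 11.1% of its calls were unchanged genes. The changed genes were drawn at all levels above a mean of 2 CPM, so these shares do not give the power for a member with few counts. Each gene was simulated independently, with no effect shared by the genes of a library, so the shares may not hold for these libraries. At these depths 1 CPM is about 10 counts. Counting coefficients of variation cover counting error only.

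The members and lists were chosen with earlier results of these data known. The rule for named genes took all members that passed the filter. From each list it took called genes or, with none called in a list around heparan sulfate, the gene with the smallest p-value. It also took the 5 genes most like LOC105918751. List entries matched by a description of another protein were taken out. The genes tiam1, sdcbp, ext2, cldn5, egfl7, LOC105932848, LOC105933411, LOC105936999 and genes called only under other settings were named after values had been seen. The correlation between hemispheres was also added after values had been seen. Alternatives were 3 other scalings, no filter, DESeq2, no block, and leaving out each fish.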

Additional observations from a re-analysis of the deposited data

Results flagged for a closer look

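Of 27 groups of 10 values (intact level, lesioned level and ratio of the 9 members tested), 6 held a value far from the other 9, judged by its gap to the nearest fish as a share of the whole range. For independent, normally distributed values chance flags about 1 in 20 groups, which is 1.35 of 27. Whether the values here are distributed in this way was not tested. The groups are not separate draws, because each ratio is made from the intact and lesioned levels of the same gene. Fish 10 is flagged for LOC105916355 by its lesioned level and again by its ratio. LOC105921706 and LOC105924072, flagged in the same library, correlated at r = 0.89, and 0.78 without it. The 6 are therefore not separate finds, and their excess over 1.35 was not tested.

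The intact hemisphere of fish 3 gave 3 of them. It had 3.75 log2 CPM for LOC105921706, where the other fish had 4.48 to 5.24 (gap 0.492 of the range). It had 2.70 log2 CPM for LOC105924072, where the others had 3.84 to 4.32 (gap 0.707). It had 7.56 log2 CPM for LOC105936964, where the others had 6.97 to 7.20 (gap 0.609).

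The lesioned hemisphere of fish 10 was lowest for LOC105916355 (5.00 log2 CPM, others 5.27 to 5.57, gap 0.477) and highest for LOC105920406 (2.65 log2 CPM, others 1.72 to 2.18, gap 0.504). The log2 ratio of fish 10 for LOC105916355 was -0.57, where the others had -0.21 to 0.20 (gap 0.472). LOC105920406 had 58 counts in that library.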

How the results depend on the processing

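The number of members called was 1 in all 17 fits. The called member is LOC105918751, which was chosen by this contrast, so neither that count nor its log2 fold change, 0.91 to 1.03 when each fish was left out, is a sign of stability. None of the 8 glypicans was called in any fit. The lowest adjusted p of a glypican in any other fit was 0.403 (gpc5, without fish 3). Without the replicate block 58 genes were called in place of 145, and 2 list genes in place of 4. Leaving out each fish gave 101 to 216 genes and 3 to 6 list genes. The sign of LOC105933611 turned under upper quartile scaling (-0.0041). Leaving out each fish gave -0.0546 to 0.0915 for this gene, -0.0337 to 0.0101 for LOC105936964 and -0.0324 to 0.0117 for LOC105936982, all uncalled. Depth limits syndecan-2-like, gpc5 and LOC105920406.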

Other observations

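Glypican-5-like (LOC105936964) and glypican-1-like (LOC105936982) are neighbours in the later annotation, with 0 protein-coding genes between them. Relative to the mean of each group, their log2 levels went in opposite directions across the 20 libraries (r = -0.60, rho = -0.52), and r was -0.53 without the intact library of fish 3. The lesioned library of fish 3 was also the highest of its group for LOC105936964 (176 CPM) and the lowest for LOC105936982 (58.7 CPM). The relation without both libraries of fish 3 was not examined, so it may rest on this fish. LOC105916355 with LOC105920406, gpc6a and gpc5a, had r = -0.58 (rho = -0.48), and -0.66 without the intact library of fish 3. The lesioned library of fish 10 was the lowest of its group for LOC105916355 and the highest for LOC105920406. The relation of this pair without that lesioned library was not examined. LOC105916355 and LOC105920406 lie on 1 chromosome with 3 protein-coding genes between them. LOC105918751 with LOC105936964 had r = -0.49 (rho = -0.59), and -0.41 without the intact library of fish 3. By r over 20 libraries these are the 3 lowest of 36 pairs of members, and their order among each other changes with the measure. Without the intact library of fish 3 the last of them is no longer among the 3 lowest. LOC105920406 with LOC105933611, at r = -0.42 over all libraries, then lay below it at -0.53. The pairs were picked after the values had been seen, and no cause was tested.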
